A study of Mus musculus with 91 samples.

Results

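Genes for the enzymes that cut, inhibit and build collagen matrix were followed in single stromal cells sorted from the bone marrow of C57BL/6 mice. The members were taken by gene name: the matrix metalloproteinases (Mmp), the tissue inhibitors Timp2, Timp3 and Timp4, the Adam, Adamts and Adamtsl families, the lysyl oxidases, the prolyl and lysyl hydroxylases of collagen, and the procollagen-processing genes Bmp1, Pcolce, Pcolce2 and Serpinh1. Of 16580 genes in the count table, 70 had such a name, and the 68 with at least 10 counts over all 91 cells are the members. The nearest gene inside that limit was Adam23 with 15 counts, and the genes outside it were Adam2 with 7 and Mmp25 with 5. All cells came from crushed bones and were CD45-Ter119-CD41-CD71- Vibrant Dye+ VCAM1+, a gate that removes leukocytes, red cells and megakaryocytes and keeps VCAM1-bearing stroma. Of the 88 cells with an agreed gate, 39 were sorted as CD61+ (17 cells on a first and 22 on a second CD61+ plate), 40 as CD61- (24 cells on a first and 16 on a second CD61- plate), and 9 as VCAM1+ with no split on CD61. CD61 is the integrin chain encoded by Itgb3. The other 3 cells carried labels that disagree on the gate and entered no comparison. The labels used here give neither age nor sex, and they name no animal, so each gate counts as 1 sample. No p-value is given, and every interval covers counting error only.

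Fibrillar collagen is the scaffold of bone. Inside the cell its chains are hydroxylated on proline and lysine and chaperoned. Outside, proteases cut off the propeptides, and lysyl oxidases cross-link the fibrils. The metalloproteinases, with their TIMP inhibitors, cut mature matrix, and membrane-bound ADAMs shed surface proteins. In marrow, matrix is laid down by osteolineage cells, whereas CXCL12-abundant reticular (CAR) cells are the perivascular stroma that feeds blood stem cells.

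Each cell gave between 507713 and 6702475 counts, with a median of 2060910. CD61 fluorescence of the CD61+ cells began at 1567 and that of the CD61- cells ended at 1573, so the gates met at their edges. Itgb3 itself was counted in 18 of 39 CD61+ cells and 2 of 40 CD61- cells. The leukocyte gene Ptprc was counted in 6 CD61+ cells and 5 CD61- cells, and the endothelial gene Cdh5 in 2 CD61+ cells and 1 CD61- cell. Clustering of the 88 cells without the member genes gave 6 clusters. Clusters 2 and 5 (27 cells) were osteolineage-like and clusters 1, 3 and 4 (52 cells) were CAR-like by their markers. Cluster 6 (9 cells) was led by Ly6a, Egfl7 and Ly6c1. It was endothelial-like by the marker rule, but Cdh5 was counted in only 4 of its 9 cells, and it is called mixed here. Cluster 5 carried both marker sets, with a mean log2(CPM + 1) of 5.89 for the osteolineage list and 7.94 for the CAR list. The CD61+ gate held 20 osteolineage-like and 16 CAR-like cells, and the CD61- gate held 6 osteolineage-like and 32 CAR-like cells. Over the cells of a gate, the 16 osteolineage markers summed to 82867 CPM (the count scaled to a common library total) in CD61+ cells and 20205 CPM in CD61- cells, and the 15 CAR markers to 21711 CPM in CD61+ cells and 46239 CPM in CD61- cells. The 12 endothelial markers summed to 949 CPM in CD61+ cells and 162 CPM in CD61- cells, and the 9 fibroblast markers to 3238 CPM in CD61+ cells and 472 CPM in CD61- cells. Without cluster 6, 22 of the 24 gate calls described below held, while Adam15, with a ratio of 1.41, and Mmp11, with 0.524, lost theirs. Ratios between the gates inside each class are given after the class comparison.

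The first comparison set CD61+ against CD61- cells. A member was called when the summed CPM of the gates differed at least 2-fold and both plates of one gate lay above both plates of the other. By that rule 16 of 68 members (23.5%) were called higher in CD61+ cells, where 13.6% of all 15735 genes with a ratio were. Lower were 8 (11.8%), near the 10.4% of all genes. The other 44 were not called. Over all 68 members the median log2 ratio was 0.33, and over all genes with a ratio it was 0.03. Many members rest on few cells. Among the 42 members counted in at least 25% of the 79 cells, 8 were called higher, against 9.02% of genes counted as widely, and 6 lower, against 9.62%. The median log2 ratio of these 42 was 0.01, and that of all such genes was -0.04. The collagenase Mmp13, the gelatinase Mmp2, the procollagen protease Bmp1 and the lysyl hydroxylase Plod2 were higher in CD61+ cells, and Mmp23 and the prolyl 3-hydroxylase P3h2 were lower, whereas Timp2, Pcolce, P4ha1 and the lysyl oxidases Lox, Loxl1 and Loxl3 were near even. An effect of the plate cannot be told apart from one of the gate, since no plate mixes them.

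**Figure D1:**
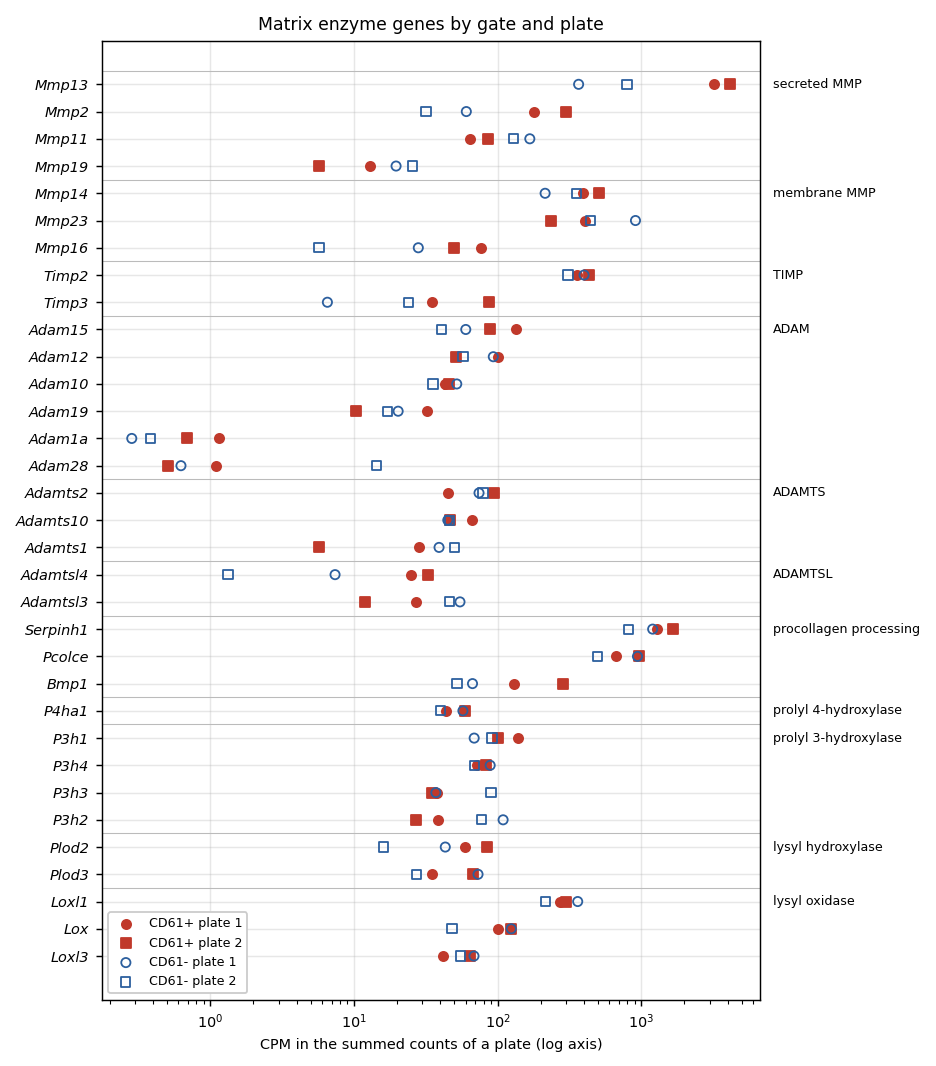
Summed CPM of the 33 members described in full, by plate, on a log axis. Filled red marks are the CD61+ plates and open blue marks the CD61- plates, and rows are grouped by enzyme family. For Mmp13 the CD61+ plates stand at 3205 and 4154 CPM and the CD61- plates at 367 and 797 CPM, while Timp2, Adam10 and P3h4 have the plates of both gates intermingled.

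Among the secreted metalloproteinases, Mmp13, a collagenase that cleaves fibrillar collagen, had the highest level per kilobase of exon in both CD61 gates. The gene lies at chr9:7272514-7283331 on the plus strand of GRCm38. It had 3205 and 4154 CPM in the 2 CD61+ plates, against 367 and 797 CPM in the 2 CD61- plates. The plates of the gates did not overlap, and the summed level was 6.67-fold higher in CD61+ cells (95% Poisson interval 6.61 to 6.74). Per cell, the lowest, median and highest values were 0, 1103 and 18341 CPM in CD61+ cells, against 0, 198 and 3223 CPM in CD61- cells. The cells of the gates overlapped from 0 upwards, and only CD61+ cells exceeded 3223 CPM among the cells of these gates. One CD61+ cell supplied 33.3% of the counts of its gate, and without it the ratio was 4.77. A count was present in 34 of 39 CD61+ cells (87.2%, exact binomial interval 72.6 to 95.7%) and in 30 of 40 CD61- cells (75.0%, 58.8 to 87.3%), so the gates differed more in level than in the share of cells. After each cell was thinned to 942845 counts, 28 of 33 CD61+ cells and 27 of 38 CD61- cells kept a count. In the VCAM1+ gate 1 of 9 cells had a count, at 705 CPM.

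The promoters of Mmp13 and of Mmp23, the members with the highest level per kilobase among those called in each direction, are shown because Mmp13 transcription in bone is known to depend on Runx2 and on AP-1 factors. RefSeq windows on build GRCm38.p6 were held for 41 of 68 members. The 250 bases before the annotated start were searched on both strands for AACCACA, a RUNX motif, and TGANTCA, an AP-1 motif, and matches are in capitals.
Mmp13, chr9:7272264-7272513, plus strand: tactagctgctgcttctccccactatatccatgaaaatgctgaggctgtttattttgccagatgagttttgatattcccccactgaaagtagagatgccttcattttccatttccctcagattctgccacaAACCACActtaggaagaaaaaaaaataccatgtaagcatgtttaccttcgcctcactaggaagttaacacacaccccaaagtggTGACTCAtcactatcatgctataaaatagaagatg
Mmp23, chr4:155653385-155653634, minus strand: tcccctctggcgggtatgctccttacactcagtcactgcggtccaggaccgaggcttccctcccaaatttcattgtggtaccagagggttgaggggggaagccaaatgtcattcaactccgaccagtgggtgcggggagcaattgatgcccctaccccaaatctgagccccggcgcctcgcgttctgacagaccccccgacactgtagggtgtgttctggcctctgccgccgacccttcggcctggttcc
The Mmp13 window held the RUNX motif 119 bases and the AP-1 motif 35 bases before the start, and the Mmp23 window held neither. Over all 32851 windows, 4.40% held the RUNX motif, 6.75% the AP-1 motif and 0.344% both. Among the 46 windows of members, 2 held the RUNX motif and 3 the AP-1 motif, which is near those shares. A match describes letters and not binding, and no match says only that these letters are not in this window.

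Mmp2, a gelatinase that cuts denatured and basement membrane collagen, had 180.2 and 299.8 CPM in the CD61+ plates, against 60.6 and 31.8 CPM in the CD61- plates. The level was 4.94-fold higher in CD61+ cells (interval 4.78 to 5.11). Counts were present in 23 of 39 CD61+ cells (58.97%, 42.1 to 74.4%), with a median of 153 CPM and a highest cell of 1018 CPM. In CD61- cells it was counted in 12 of 40 (30.0%, 16.6 to 46.5%), with a median of 0 and a highest cell of 531 CPM. For Mmp2, then, both the share of cells with a count and the level were higher in the CD61+ gate. In the VCAM1+ gate 4 of 9 cells had a count, and the highest reached 702 CPM.

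Mmp11, a secreted protease first described as stromelysin in tumour stroma, was lower in CD61+ cells, at 64.0 and 86.0 CPM by plate, against 168 and 129 CPM in the CD61- plates. The ratio of 0.495 lies at the edge of the 2-fold rule, and leaving out any one of 36 of the 79 cells ended the call. Most cells of either gate had no count, which was present in 13 of 39 CD61+ cells and 19 of 40 CD61- cells. Mmp19 stood at 12.9 and 5.76 CPM in the CD61+ plates, against 19.7 and 25.6 CPM in the CD61- plates, a ratio of 0.423 that ran from 0.278 to 0.536 without 1 cell and so crossed the limit. Counts of Mmp19 were present in 14 of 39 CD61+ cells and 12 of 40 CD61- cells, so the share of cells was not lower in the CD61+ gate. Of the Mmp19 exons, 28.3% overlap Gm47093 and Tmem198b on the opposite strand. Without the second CD61+ plate the Mmp19 ratio was 0.580 and the call ended. The Mmp11 call ended without the first CD61+ plate (0.569) or the first CD61- plate (0.580), and both calls ended on mean per-cell CPM, with ratios of 0.642 for Mmp11 and 0.611 for Mmp19. Both of these secreted proteases were thus below 200 CPM in every plate.

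Membrane-anchored metalloproteinases moved in both directions. Mmp14, the collagenase of the cell surface that also activates the Mmp2 proenzyme together with Timp2, had 392 and 505 CPM in the CD61+ plates, against 214 and 356 CPM in the CD61- plates. Its plates did not overlap, but the 1.63-fold ratio stayed under the 2-fold limit. Mmp14 was present in 37 of 39 CD61+ cells, with a median of 316 CPM, and in 33 of 40 CD61- cells, with a median of 203 CPM. Mmp16, a membrane relative of Mmp14, had 76.1 and 49.5 CPM in the CD61+ plates, against 28.1 and 5.72 CPM in the CD61- plates. Its ratio was 3.40, and 1 cell of each gate held 41.2% of the CD61+ counts and 50.1% of the CD61- counts. Without 1 cell the Mmp16 ratio ran from 2.15 to 6.59.

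Mmp23, which is held in the membrane by its amino end and lacks the hemopexin domain of its relatives, went the other way. It had 404 and 234 CPM in the CD61+ plates, against 912 and 446 CPM in the CD61- plates. The ratio was 0.449 (interval 0.442 to 0.456). Per cell, the median and highest values were 223 and 1538 CPM in CD61+ cells, against 403 and 14188 CPM in CD61- cells, with cells at 0 in both gates. One CD61- cell held 34.02% of the counts of its gate, and without it the ratio was 0.669 and the call ended. It ended too without the first CD61- plate, at 0.719, without the second CD61+ plate, at 0.566, and on mean per-cell CPM, at 0.376 with overlapping plates. The share of cells with a count was close, at 30 of 39 CD61+ cells and 32 of 40 CD61- cells.

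Of the TIMPs, Timp2, which inhibits metalloproteinases and takes part in Mmp2 activation, was the steady member. It had 356 and 433 CPM in the CD61+ plates, against 400.3 and 309.9 CPM in the CD61- plates, and was counted in 35 of 39 CD61+ and 37 of 40 CD61- cells. Its plates overlapped, and the ratio was 1.09. Timp3, a matrix-bound inhibitor that also acts on ADAM and ADAMTS proteases, had 34.7 and 87.8 CPM in the CD61+ plates, against 6.54 and 24.0 CPM in the CD61- plates. Timp3 was present in 21 of 39 CD61+ cells and 9 of 40 CD61- cells. Its 4.34-fold ratio ran from 3.05 to 6.53 without 1 cell, and without 1 of the 79 cells the plates of the gates overlapped, which ended the call. Of the Timp3 exons, 21.3% overlap Syn3 on the opposite strand, where the reads of the 2 genes cannot be told apart. Timp4 was outside the rule for full description and is named because it had no count in any of 39 CD61+ cells, which allows a share of up to 7.69%, against 30.6 CPM from 5 CD61- cells.

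**Figure D2:**
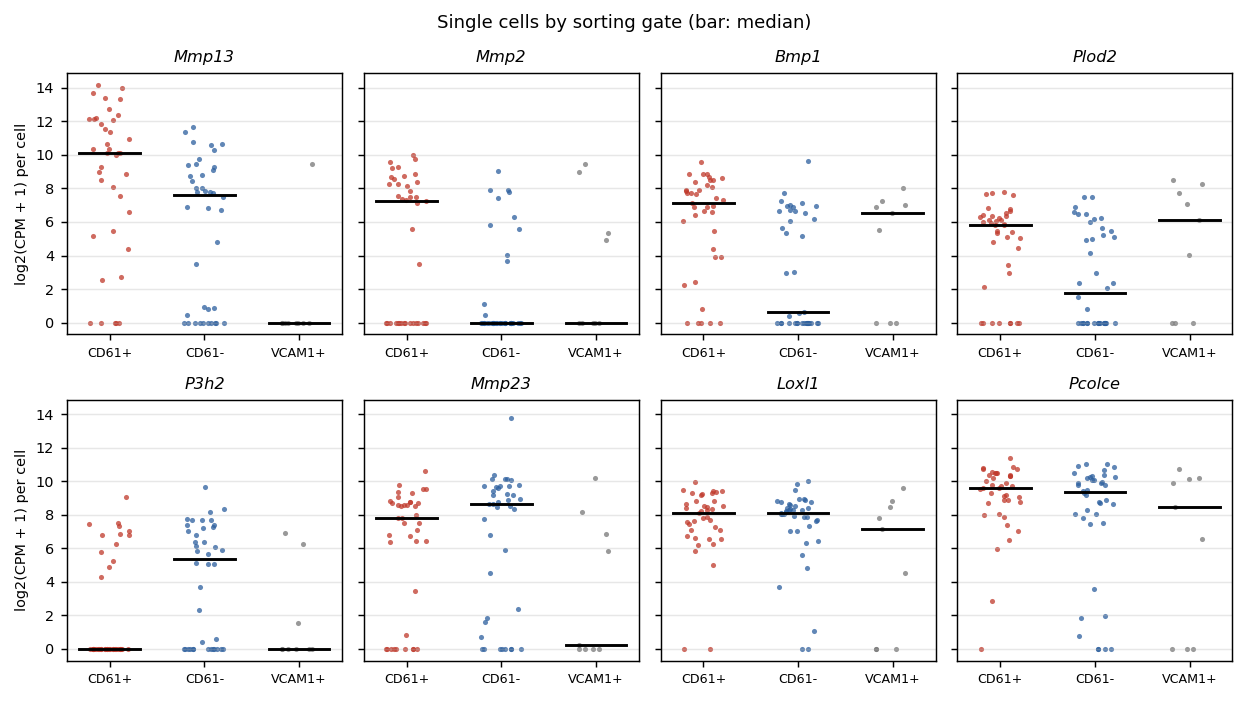
Log2(CPM + 1) in every cell for 8 members, by sorting gate (39 CD61+, 40 CD61- and 9 VCAM1+ cells), with the median as a bar. Cells of the CD61+ gate reach the highest values of Mmp13 and Mmp2, P3h2 is at 0 in most CD61+ cells, and Loxl1 and Pcolce have similar medians in the CD61+ and CD61- gates.

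Of 14 ADAM genes, 5 were called higher in CD61+ cells, where 13.6% of all genes were, and 1 lower, where 10.4% were. The other 8 were not called. Of the 5, Adam11, Adam4 and Adam33 are named after their values were seen and rest on few counts. Adam11 had 33 counts in CD61+ cells, 81.8% of them in 1 cell, and Adam4 had 61, 96.7% of them in 1 cell. Adam33 had 9 counts in CD61+ cells and 4 in CD61- cells. Adam10, the main sheddase of Notch receptors, had 43.2 and 46.0 CPM in the CD61+ plates, against 52.0 and 35.5 CPM in the CD61- plates. Adam12, a membrane protease expressed in mesenchyme, had 101 and 51.2 CPM in the CD61+ plates, against 93.5 and 57.6 CPM in the CD61- plates. The plates of the gates overlapped for both, with a ratio of 0.991 for Adam10 and 0.982 for Adam12. Adam15 was called higher, with 135 and 89.0 CPM in the CD61+ plates, against 60.1 and 40.6 CPM in the CD61- plates. Its 2.17-fold ratio was 1.57, and the call ended, without 1 CD61+ cell of 1886 CPM. The Adam15 call also ended without the first CD61+ plate, at 1.72, and without the second CD61- plate, at 1.87. Of its exons, 20.6% overlap the antisense gene 4731419I09Rik. Adam1a was called higher at very low levels, with 1.15 and 0.691 CPM in the CD61+ plates, against 0.285 and 0.383 CPM in the CD61- plates, and 63.7% of its exons are shared with neighbouring genes. Adam19, at 32.5 and 10.3 CPM in the CD61+ plates, against 20.3 and 17.2 CPM in the CD61- plates, was not called, and nor was Adam28. Adam28 had 1.10 and 0.505 CPM in the CD61+ plates, against 0.626 and 14.4 CPM in the CD61- plates, and its ratio of 0.124 became 1.76 without 1 CD61- cell.

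Within the ADAMTS family, Adamts2, the protease that removes the amino propeptide of fibrillar procollagen, was counted in 38 of 39 CD61+ and 34 of 40 CD61- cells. It had 45.1 and 95.1 CPM in the CD61+ plates, against 74.3 and 79.1 CPM in the CD61- plates, and its medians were nearly equal, at 68.2 CPM in CD61+ cells and 68.8 CPM in CD61- cells. Adamts10, a relative tied to fibrillin microfibrils, had 66.5 and 46.4 CPM in the CD61+ plates, against 45.1 and 46.1 CPM in the CD61- plates. Neither was called. Adamts1, which cuts the proteoglycans aggrecan and versican, was called lower, with 28.2 and 5.76 CPM in the CD61+ plates, against 39.2 and 50.1 CPM in the CD61- plates. Counts of Adamts1 were present in 14 of 39 CD61+ cells and 25 of 40 CD61- cells. The ratio of 0.393 ran from 0.251 to 0.464 without 1 cell, and in 1 of the 79 cases the plates overlapped and the call ended. With the 3 cells of disagreeing labels placed by their gate characteristic the Adamts1 ratio was 0.694, and without the second CD61+ plate 0.644, and in both cases the call ended. The ADAMTS-like proteins have no protease domain. Of these, Adamtsl4, a microfibril-associated protein, was called higher, at 24.9 and 33.01 CPM in the CD61+ plates, against 7.40 and 1.33 CPM in the CD61- plates. Adamtsl3 was called lower, at 27.3 and 11.95 CPM in the CD61+ plates, against 54.8 and 46.1 CPM in the CD61- plates. The Adamtsl4 ratio was 6.00 and the Adamtsl3 ratio 0.386, and neither call was lost without any 1 of the 79 cells. Without the second CD61+ plate the Adamtsl3 ratio was 0.533 and its call ended.

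Of the genes that fold and trim procollagen, Serpinh1 and Pcolce were counted in nearly every cell of both CD61 gates. Serpinh1, the collagen chaperone of the endoplasmic reticulum, was present in 39 of 39 CD61+ cells and 38 of 40 CD61- cells, with 1295 and 1667 CPM in the CD61+ plates, against 1202 and 819 CPM in the CD61- plates. Pcolce, the enhancer of procollagen C-proteinase, had 673 and 959.8 CPM in the CD61+ plates, against 942 and 494 CPM in the CD61- plates. The ratio was 1.42 for Serpinh1 and 1.08 for Pcolce, and neither was called. Bmp1, the C-proteinase that Pcolce assists, differed, with 129.6 and 285 CPM in the CD61+ plates, against 67.0 and 52.2 CPM in the CD61- plates. The CD61+ plates were both above the CD61- plates, and the ratio was 3.39 (interval 3.29 to 3.498, and 3.14 to 4.28 without 1 cell). Bmp1 was counted in 34 of 39 CD61+ cells (87.2%, 72.6 to 95.7%), with a median of 138 CPM, and in 22 of 40 CD61- cells (55%, 38.5 to 70.7%), with a median of 0.531 CPM.

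Proline hydroxylation showed 1 clear contrast. P4ha1, a catalytic subunit of the 4-hydroxylase that stabilises the collagen helix, had 43.8 and 59.0 CPM in the CD61+ plates, against 57.4 and 40.2 CPM in the CD61- plates. P3h1, the 3-hydroxylase of fibrillar collagen, had 139 and 101 CPM in the CD61+ plates, against 68.8 and 91.6 CPM in the CD61- plates, a ratio of 1.53. P3h4, a non-catalytic relative, had 72.4 and 83.3 CPM in the CD61+ plates, against 88.9 and 68.8 CPM in the CD61- plates. The plates of the gates overlapped for P4ha1 and P3h4. P3h3 had 37.9 and 34.8 CPM in the CD61+ plates, against 37.2 and 90.05 CPM in the CD61- plates, a ratio of 0.609. None of these 4 was called. P3h2, a 3-hydroxylase known to act on basement membrane collagen, was called lower, with 38.3 and 26.98 CPM in the CD61+ plates, against 109 and 77.6 CPM in the CD61- plates. P3h2 had a count in 13 of 39 CD61+ cells (33.3%, 19.1 to 50.2%) and 27 of 40 CD61- cells (67.5%, 50.9 to 81.4%). The ratio of 0.342 kept between 0.278 and 0.412 without any 1 cell, and 28.4% of the P3h2 exons overlap the antisense gene Gm4524.

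Of 3 lysyl hydroxylases and 5 lysyl oxidases, 1 of each was called, both higher in CD61+ cells, where 13.6% of all genes were. Plod2, the lysyl hydroxylase of the collagen telopeptides that sets the type of cross-link, had 59.7 and 85.2 CPM in the CD61+ plates, against 43.3 and 15.997 CPM in the CD61- plates. Plod2 had a count in 31 of 39 CD61+ cells (79.5%, 63.5 to 90.7%) and 22 of 40 CD61- cells (55%, 38.5 to 70.7%), and its ratio of 2.28 ran from 2.10 to 2.69 without 1 cell. The Plod2 ratio was 1.89 without the second CD61+ plate and 1.67 without the second CD61- plate, and in both cases the call ended. Plod3, which also adds sugars to hydroxylysine, had 35.2 and 67.9 CPM in the CD61+ plates, against 73.2 and 27.4 CPM in the CD61- plates, which overlap. The lysyl oxidases form the cross-links. Loxl4 was the called one, at a low level, with 3.15 and 10.4 CPM in the CD61+ plates, against 0 and 0.409 CPM in the CD61- plates. Loxl4 was counted in 7 of 39 CD61+ cells and 1 of 40 CD61- cells, is named after its values were seen, and had a ratio of 38.5 that ran from 20.5 to 199 without 1 cell. Loxl1 had 271 and 298 CPM in the CD61+ plates, against 361 and 215 CPM in the CD61- plates. Lox had 101 and 124 CPM in the CD61+ plates, against 125 and 48.2 CPM in the CD61- plates. Loxl3 had 41.9 and 64.8 CPM in the CD61+ plates, against 68.6 and 55.4 CPM in the CD61- plates. For Lox, Loxl1 and Loxl3 the plates of the gates overlapped, with ratios between 0.844 for Loxl3 and 1.22 for Lox.

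The remaining 35 members stayed at or below 45.8 CPM in both CD61 gates. Of these, 7 were called higher and 2 lower, beside 13.6% higher and 10.4% lower over all genes. In 23 of the 35, however, a single cell held over 50% of the counts of a gate. No count was found in the CD61- gate for 6 members, and 0 of 40 cells allows a share of up to 7.5%. Of the genes named here after their values were seen, the gelatinase Mmp9 is among the 7, with 5.89 CPM from 3 CD61+ cells and 1.10 CPM from 2 CD61- cells. More widely counted were Adam17, the sheddase of TNF, the aggrecanases Adamts5 and Adamts9, P4ha2, Plod1 and Loxl2, each present in at least 22 cells of either gate and none of them called.

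The 9 cells of the unsplit VCAM1+ gate, with 4 in the mixed cluster 6, 4 CAR-like and 1 osteolineage-like, are given here as levels. Those 4 CAR-like cells and 1 osteolineage-like cell also enter the class sums and ratios below. They have no part in the direction required inside the CD61+ and CD61- gates. Serpinh1 was counted in 7 of 9 cells, with a median of 1129 CPM and a highest cell of 3643 CPM, and Timp2 in 8 of 9, with a median of 119 CPM and a highest cell of 2224 CPM. Both were carried by most cells of the gate. Plod2 was counted in 6 cells and reached 364 CPM, and Mmp23 in 5 cells, with a median of 0.166 CPM. Mmp11 had no count in 9 cells, which allows a share of up to 33.3%. Mmp13, Mmp23 and Mmp11 were thus each at 0 or near it in most of these cells, and the gate was not compared with the others.

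The second comparison set osteolineage-like against CAR-like cells, with a member called when the summed CPM differed at least 2-fold and the direction was the same inside the CD61+ gate and inside the CD61- gate. By that rule 7 members were called higher in osteolineage-like cells, where 7.67% of all 15653 genes were, and 14 were called lower, where 21.1% of all genes were. Among the 42 widely counted members, 7 were higher against 5.18% of such genes, and 8 were lower against 21.7%. The median log2 ratio of all members was -0.20 and that of all genes -0.38. The osteolineage-like cells had more of the matrix-cutting Mmp13, Mmp2 and Mmp16, of Bmp1, Plod2 and Timp3, and of Adam10, and the CAR-like cells had more P3h2, Mmp23, Mmp11, Mmp19, Plod3, Adam19, Adam28 and Adamtsl3.

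Mmp13 had 4473 CPM in osteolineage-like cells and 365 CPM in CAR-like cells, a 12.3-fold ratio that ran from 9.05 to 14.8 without 1 cell. The Mmp13 ratio was 5.84 at Leiden resolution 0.5 and between 12.1 and 15.8 in the other class settings. Medians per cell were 2998 CPM in osteolineage-like and 115 CPM in CAR-like cells, and 25 of 27 osteolineage-like and 40 of 52 CAR-like cells had a count. Within the classes the clusters differed. Cluster 2, led by Spp1, Postn and Bglap2, had 5763 CPM, and cluster 5, which carried both marker sets, had 1696 CPM. The CAR-like clusters 1, 3 and 4 had 262, 341 and 633 CPM. In the mixed cluster 6, no count was found in 9 cells, which allows a share of up to 33.3%. Mmp13 was therefore highest in cluster 2 and present at a lower level in the CAR-like clusters.

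**Figure D3:**
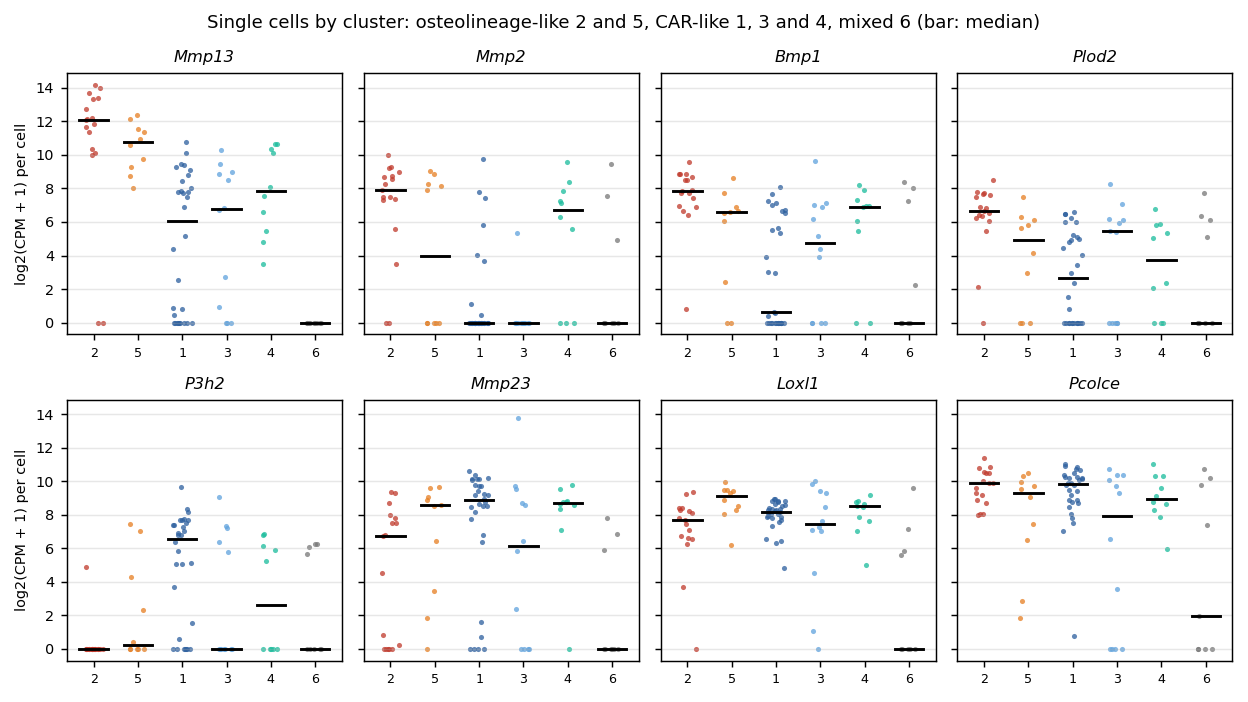
Log2(CPM + 1) in every cell for 8 members, by cluster, with the median as a bar. Clusters 2 and 5 are osteolineage-like (17 and 10 cells), clusters 1, 3 and 4 CAR-like (30, 12 and 10 cells), and cluster 6 is mixed (9 cells). Mmp13 and Bmp1 are highest in cluster 2, P3h2 is highest in cluster 1 and at 0 in nearly every cell of cluster 2, and Loxl1 is counted in nearly every cell of clusters 1 to 5.

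Mmp2 had 285 CPM in osteolineage-like cells and 62.6 CPM in CAR-like cells, and 20 of 27 osteolineage-like and 16 of 52 CAR-like cells carried it. Its contrast was uneven between the gates, a difference that was not tested. Inside the CD61+ gate it had 301 CPM in osteolineage-like and 188 CPM in CAR-like cells, a log2 ratio of 0.68. Inside the CD61- gate it had 171 CPM in osteolineage-like and 21.0 CPM in CAR-like cells, a log2 ratio of 3.03. Cluster 4, a CAR-like cluster of 10 cells, had 148 CPM, against 40.2 CPM in cluster 1 and 3.70 CPM in cluster 3, so the CAR-like clusters were unlike each other. Bmp1 had 213 CPM in osteolineage-like and 74.1 CPM in CAR-like cells, a ratio of 2.87. With the classes of Leiden resolution 0.5 the Bmp1 ratio was 2.44, without the same direction in both gates, and the call ended. Plod2 had 120.2 CPM in osteolineage-like and 28.4 CPM in CAR-like cells, a ratio of 4.23, with 154 CPM in cluster 2 and 48.4 CPM in cluster 5. Mmp16 had 88.1 CPM in osteolineage-like and 11.0 CPM in CAR-like cells. The Mmp16 ratio of 7.98 ran from 5.69 to 12.8 without 1 cell, and was 4.45 at Leiden resolution 0.5 and 4.72 on mean per-cell CPM. Each of these 4 calls held without any 1 of the 79 cells of both classes.

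Timp3 and Adam10 were the other members higher in osteolineage-like cells. Timp3 had 69.2 CPM in osteolineage-like and 7.46 CPM in CAR-like cells, a 9.27-fold ratio that ran from 6.45 to 20.7 without 1 cell, and its contrast was uneven between the gates, a difference that was not tested. Within the CD61+ gate Timp3 had 101 CPM in osteolineage-like and 3.05 CPM in CAR-like cells, and within the CD61- gate 13.4 CPM in osteolineage-like and 10.02 CPM in CAR-like cells. Without 1 cell, and without cluster 5, an alternative chosen after seeing the data, the Timp3 call ended. The mixed cluster 6, which is in neither class, had the most Timp3, at 122 CPM with a count in 8 of 9 cells. Cluster 2 had 78.7 CPM and cluster 5 had 48.6 CPM. Adam10, which was even between the gates, had 71.1 CPM in osteolineage-like and 32.7 CPM in CAR-like cells. Within the CD61+ gate Adam10 was at 65.8 CPM in osteolineage-like and 13.2 CPM in CAR-like cells, and within the CD61- gate at 85.1 CPM in osteolineage-like and 36.9 CPM in CAR-like cells. The Adam10 ratio of 2.18 fell to 1.83 without 1 cell, which ended the call. It was 1.54 at Leiden resolution 0.5, 1.72 at resolution 2 and 1.98 on mean per-cell CPM, each under the limit.

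P3h2 was the member with the widest contrast towards CAR-like cells among those at 50 CPM or more. It had 5.25 CPM in osteolineage-like and 102 CPM in CAR-like cells, a 19.5-fold lower level in osteolineage-like cells that ran from 16.8-fold to 33.9-fold without 1 cell. Other settings moved the P3h2 ratio of 0.0514 further, and the call held. It was 0.111 at Leiden resolution 0.5, 0.118 at resolution 2 and 0.136 on mean per-cell CPM, all nearer to even. Without cluster 5 it was 0.00830, and with the members kept in the clustering 0.0491. A count was found in 6 of 27 osteolineage-like and 33 of 52 CAR-like cells. Cluster 1 had 133 CPM and cluster 2 had 0.848 CPM. Within the CD61+ gate the values were 7.81 CPM in osteolineage-like and 69.6 CPM in CAR-like cells, and within the CD61- gate 0.760 CPM in osteolineage-like and 120.2 CPM in CAR-like cells.

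Mmp23 had 256 CPM in osteolineage-like and 710.2 CPM in CAR-like cells, and 1 cell raised cluster 3 to 1829.9 CPM. Without 1 cell the Mmp23 ratio of 0.360 became 0.501, which ended the call. Mmp11 had 61.6 CPM in osteolineage-like and 145 CPM in CAR-like cells, and was near even inside the CD61+ gate, at 78.96 CPM in osteolineage-like and 86.5 CPM in CAR-like cells. Inside the CD61- gate Mmp11 had 40.3 CPM in osteolineage-like and 184 CPM in CAR-like cells. The Mmp11 ratio of 0.426 ran from 0.315 to 0.520 without 1 cell, and leaving out any one of 6 cells ended the call. It also ended at Leiden resolution 2 (0.649), with the members kept in the clustering (0.546) and on mean per-cell CPM (0.701). Plod3 had 24.9 CPM in osteolineage-like and 70.9 CPM in CAR-like cells, the reverse of Plod2. Both calls held without any 1 cell, but the Plod3 ratio of 0.351 was 0.891 at Leiden resolution 0.5 and 0.556 at resolution 2, and in both cases its call ended. Adam19 had 5.03 CPM in osteolineage-like and 26.2 CPM in CAR-like cells, and Mmp19 had 2.41 CPM in osteolineage-like and 23.5 CPM in CAR-like cells. Adamtsl3 had 15.4 CPM in osteolineage-like and 57.4 CPM in CAR-like cells. Adam28 had 0.259 CPM in osteolineage-like and 5.99 CPM in CAR-like cells. Single cells moved these scarcer members, with ratios without 1 cell of 0.0294 to 0.237 for Adam19, 0.0298 to 0.123 for Mmp19, 0.162 to 0.305 for Adamtsl3 and 0.0292 to 0.309 for Adam28, and all 4 calls held. At Leiden resolution 2 the Adam19 ratio was 0.390 and its call ended, while the Mmp19 ratio was 0.198 and its call held.

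Several abundant members differed little between the classes over all cells. Loxl1 had 285 CPM in osteolineage-like and 303 CPM in CAR-like cells, and Lox had 119 CPM in osteolineage-like and 120.4 CPM in CAR-like cells. Pcolce had 836 CPM in osteolineage-like and 779 CPM in CAR-like cells. Serpinh1 was under the 2-fold limit, at 1778 CPM in osteolineage-like and 1041 CPM in CAR-like cells. The class contrast differed between the gates. Inside the CD61+ gate Lox had 121 CPM in osteolineage-like and 126 CPM in CAR-like cells. Inside the CD61- gate Lox had 16.6 and 114 CPM in that order. Serpinh1 had 1821 and 1118 CPM in the CD61+ gate, and 1012 and 1089 CPM in the CD61- gate. Pcolce had 927 and 754 CPM in the CD61+ gate, and 570 and 827 CPM in the CD61- gate. These differences were not tested. The similar Lox levels over all cells also hid a split by cluster, since the osteolineage-like cluster 2 had 164 CPM and cluster 5 had 22.99 CPM. Loxl1 was ordered the other way, with 188 CPM in cluster 2 and 494 CPM in cluster 5. Adam12 followed Loxl1, with 77.8 CPM in cluster 2 and 148 CPM in cluster 5.

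**Figure D4:**
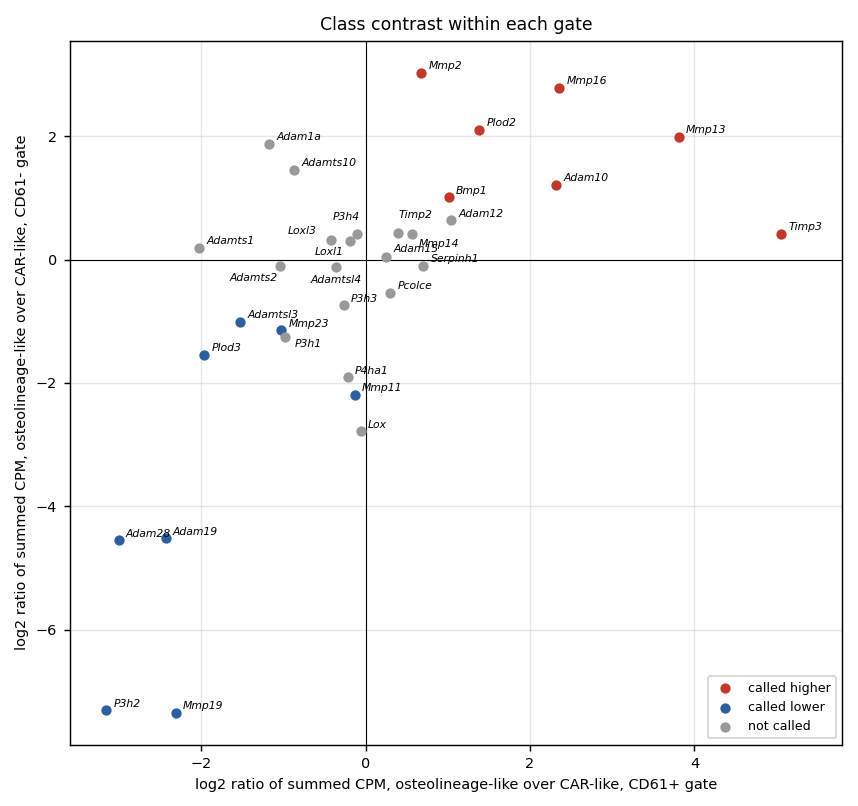
Log2 ratio of summed CPM, osteolineage-like over CAR-like cells, inside the CD61+ gate (x axis, 20 against 16 cells) and inside the CD61- gate (y axis, 6 against 32 cells), for the 33 members described in full. Mmp13, Mmp16, Plod2, Adam10 and Bmp1 are above 1 in both gates, P3h2, Mmp19, Adam19 and Adam28 are below -2 in both, and Adam1a and Adamts10 lie on opposite sides of 0.

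The gate contrast was also read inside each class. Most osteolineage-like cells of the CD61+ gate were in cluster 2 (14 of 20) and most of those of the CD61- gate in cluster 5 (4 of 6). Most CAR-like cells of the CD61- gate were in cluster 1 (24 of 32), and cluster 4 held 7 of 16 in the CD61+ gate. Among osteolineage-like cells Mmp13 had 6331 CPM in the CD61+ gate and 1435 CPM in the CD61- gate, a log2 ratio of 2.14. Among CAR-like cells it had 451 CPM in the CD61+ gate and 362 CPM in the CD61- gate, a log2 ratio of 0.32. Bmp1 was higher in the CD61+ gate by a log2 ratio of 1.35 among osteolineage-like and 1.35 among CAR-like cells, and Adamtsl4 by 2.55 among osteolineage-like and 2.79 among CAR-like cells. Mmp2 differed by 0.81 among osteolineage-like and 3.16 among CAR-like cells. Other called members had smaller contrasts inside the classes. Plod2, at 1.19 over all cells, had 0.20 among osteolineage-like and 0.93 among CAR-like cells. Mmp16, at 1.76, had 0.70 and 1.13 in that order, and Mmp23, at -1.16, had -0.60 and -0.72. Timp3 had 2.92 among osteolineage-like cells but -1.72 among CAR-like cells, where 3 cells of each gate had a count. P3h2 was lower in the CD61+ gate among CAR-like cells, with a log2 ratio of -0.79, and its 3.36 among osteolineage-like cells rests on 5.25 CPM over the class. Over all cells the log2 ratio was 1.76 for Bmp1, 2.58 for Adamtsl4 and 2.74 for Mmp13. The Adamtsl4 contrast was thus about as large inside each class, but its osteolineage-like CD61- level of 4.21 CPM came from 3 of 6 cells. The Mmp13 contrast was smaller among CAR-like cells.

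Levels of different genes are set side by side per kilobase of exon, from the union of GENCODE M21 exons. In CD61+ cells Mmp13 led with 1373 CPM per kilobase, followed by Serpinh1 with 605, Pcolce with 213, Mmp23 with 137 and Timp2 with 101 CPM per kilobase. In CD61- cells Serpinh1 led with 425 CPM per kilobase, followed by Mmp23 with 305, Mmp13 with 206, Pcolce with 196, Timp2 with 92.9 and Loxl1 with 90.8 CPM per kilobase. Mmp13 and Pcolce, and likewise Timp2 and Loxl1, lay closer together in CD61- cells than the plates of a gate lay apart. Among the members, the transcript most abundant per length in the summed counts was thus a protease in the CD61+ gate and a chaperone in the CD61- gate. The CD61+ sum joins unlike classes. Its osteolineage-like cells had 6331 CPM of Mmp13 and 1821 CPM of Serpinh1, and its CAR-like cells had 451 CPM of Mmp13 and 1118 CPM of Serpinh1.

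Across single cells, Spearman correlations of log2(CPM + 1) are given as descriptions for the 42 widely counted members, over 39 CD61+ and 40 CD61- cells. Cells of a gate share plates and differ in depth. With the mean of the osteolineage markers, 7 members had a rho above 0.3 in both gates, namely Bmp1, Mmp13, Mmp14, Mmp2, Pcolce, Plod2 and Serpinh1. Mmp13 had 0.69 in CD61+ cells and 0.37 in CD61- cells, and Plod2 had 0.51 in CD61+ cells and 0.60 in CD61- cells. With the mean of the CAR markers, Adamts2, P3h2 and Plod3 were above 0.3 in both gates, P3h2 at 0.51 in CD61+ and 0.49 in CD61- cells, and Timp3 was below -0.3 in both, at -0.58 in CD61+ and -0.42 in CD61- cells. Lox followed the CAR markers with a rho of 0.23 in CD61+ cells and 0.72 in CD61- cells. Of the index-sort values, CD200 fluorescence had a rho above 0.3 in both gates with Mmp2 (0.47 in CD61+ and 0.50 in CD61- cells) and with Timp2, and neither CD51 fluorescence nor forward scatter had one with any member. For Mmp13 the rho with CD200 was 0.60 in CD61+ cells and 0.14 in CD61- cells.

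Pairs of members were mostly unrelated, with a median rho of 0.03 in CD61+ cells and 0.12 in CD61- cells over 861 pairs. In 14 pairs rho was above 0.3 in both gates. Mmp2 with its inhibitor and cofactor Timp2 gave 0.51 in CD61+ cells and 0.50 in CD61- cells, and Bmp1 with Serpinh1 gave 0.69 in CD61+ cells and 0.38 in CD61- cells. Mmp13 with Mmp2 gave 0.43 in CD61+ cells and 0.36 in CD61- cells, and Pcolce with Plod2 gave 0.40 in CD61+ cells and 0.35 in CD61- cells.

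The substrates and helpers of these enzymes were read from 3 fixed lists of other genes, beside the same 13.6% called higher and 10.4% called lower. Of 10 fibrillar collagen genes, 4 were called higher in CD61+ cells and 0 lower, with a median log2 ratio of 1.19. Col1a1 had 2274 CPM in CD61+ cells and 111 CPM in CD61- cells, and Col1a2 had 1912 CPM in CD61+ cells and 427 CPM in CD61- cells, while Col3a1 and Col5a2 were not called. Of 14 genes for collagen folding and export, 3 were called higher, Fkbp14, Sec23a and Creb3l1, and 0 lower, with a median of 0.34. Of 21 other matrix proteases and inhibitors, 4 were called higher and 1 lower, with a median of 0.37. Among those called higher, the surface protease Fap had 674 CPM in CD61+ cells and 312 CPM in CD61- cells. The log2 ratio was 4.36 for Col1a1 and 2.16 for Col1a2, beside 0.51 for Serpinh1, which chaperones their product, and these differences between genes were not tested.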

How the data were processed

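Single marrow cells were sorted into 96-well plates and made into Smart-seq2 libraries without molecular identifiers, per the labels' protocols. The expected counts per gene and cell were deposited by the authors, who used kallisto 0.43.0, R 3.5.1 and mm10 per the submitters' processing notes. All values in the table were whole numbers. No source used here gives the annotation or any filters. Count totals deposited for each cell equalled its column sum in 91 of 91 cells. The deposited fluorescence intensity values are linear index-sort readings, and 42 further columns of per-cell values were not used.

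Counts were summed per gate, plate or class and divided by the summed total (CPM), with a floor of 3 counts per group in ratios. Ratios were not tested. Intervals are 95% Poisson or Clopper-Pearson intervals, while the limit given for a count of 0 is 3 cells of the total. Clustering left the members out and took the 2000 genes of highest variance on the log2(CPM + 1) scale (15 principal components, 10 neighbours, Leiden resolution 1, scanpy 1.11.5). Members were described in full at 50 CPM or more in either CD61 gate, or when called and detected in 25% or more of the higher group's cells, and the others by counts and ranges. The call rules were tested on simulated data. Alternatives used edgeR 4.0.16 and DESeq2 1.42.0 only for scaling factors. Doublets were not called, since single cells were sorted. Members and lists were chosen with earlier results of these data known. Values of some single genes are not reported here.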

Additional observations from a re-analysis of the deposited data

Results flagged for a closer look

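In the VCAM1+ gate, 15 members at 50 CPM or more and counted in at least 5 of 9 cells were examined for a cell far from the others, and 4 had one. A single cell had 593 CPM of Adamts10, where the next cell had 138 CPM. One cell had 1179.6 CPM of Mmp23, where the next had 287 CPM. One had 395 CPM of P4ha1, where the next had 103 CPM, and one had 475 CPM of Plod3, where the next had 154 CPM. Chance flags about 1 in 20 groups of normally distributed values, and these values are skewed.

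Adam1a had opposite class contrasts in the gates. The log2 ratio of osteolineage-like over CAR-like cells was -1.17 in the CD61+ gate and 1.87 in the CD61- gate, at levels below 2 CPM, and this difference was not tested.

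Mmp13 was present in cells outside the comparisons. Of the 3 cells whose labels disagree on the gate, one had 16.8 CPM (43 counts) and another 218 CPM (457 counts), above the 3 counts used as a floor, and the third had none.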

How the results depend on the processing

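No paired analysis was possible because the comparisons come from no test and the labels name no animals. The 16 higher and 8 lower gate calls and the 7 higher and 14 lower class calls changed by no more than 1.5 times under edgeR or DESeq2 scaling, mean per-cell CPM, a floor of 10 counts, thinning to 1 depth, a minimum of 1 or 100 counts and a 1.5-fold limit, where each applied. A 4-fold limit left 10 higher and 2 lower members by gate and 6 lower by class, since it is stricter. Leiden resolution 2, with 31 osteolineage-like and 41 CAR-like cells, gave 9 lower by class. Dropping cluster 5, an alternative chosen after seeing the data, gave 7 higher and 18 lower. The median log2 ratio of all 68 members by gate was 0.33 in the main setting. Without 1 plate the order of fewer plates has to hold, so the call rule is looser and its counts are not directly comparable. In that setting the gate gave 18 to 22 higher and 6 to 10 lower calls, with medians of 0.17 to 0.40. Without 1 cell, it gave 15 to 17 higher and 5 to 8 lower, with medians of 0.18 to 0.42, and the classes gave 6 to 9 higher and 12 to 16 lower. In all, 13 of 24 gate calls were kept without each of the 79 cells of the CD61 gates, and 12 of 21 class calls without each of the 79 cells of both classes. Over all settings that keep the 2-fold limit, 11 of the 24 gate calls and 9 of the 21 class calls held under every one. No gate-called member changed direction. Of the members called lower by class, Adamtsl1 had a log2 ratio of 2.54 at Leiden resolution 0.5, where 19 of 28 osteolineage-like cells were of the original class, and at resolution 2 Adamts15 had 0.11 and Adamts3 3.60, and the cause was not tested. For 39 members, 351 values stayed near the reported ratio (within its counting interval, or within 1.5 times without 1 cell). Another 426 moved beyond that limit, towards or away from an even ratio. A change of direction is included among these only for members without a call. In 3 values a called member changed direction.

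Members at low levels rest on few cells, and there single cells decide the sums. Smart-seq2 reads are not independent molecules, so intervals are too narrow, and 1 sample per gate gives no replicate check. Only 6 osteolineage-like CD61- cells carry that class inside its gate.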
